A study of Mus musculus with 2 samples.

Results

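Apoe, Clu and Apod (carriers), Abca1 and Abcg1 (exporters), Lrp1 (a receptor) and Lpl (a lipase) were followed through the cell classes of sorted mouse basolateral amygdala. These are 7 of the 25120 genes listed over both tables, were chosen by name and not by their values, and all 7 had molecules in both libraries. The data are counts of unique molecules (UMIs, one for each captured transcript) per cell from BD Rhapsody single-cell RNA sequencing of adult C57BL/6 mice. One library came from mice given FGF21, a hormone that signals through the co-receptor beta-klotho (Klb), at 1 mg/kg once a day for 3 days, and the other from mice given vehicle for 3 days. Each library pooled tissue of 3 mice, so each treatment has 1 library. In both, dissociated cells were sorted for the fluorescent protein tdTomato and for viability, and the series title calls the sorted cells KLB-expressing. Which line or promoter drove the reporter is not given in the sources used here.

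Lipid moves between brain cells in particles that hold cholesterol and phospholipid around an apolipoprotein. The transporters ABCA1 and ABCG1 pass lipid from the cell to these particles, ABCA1 mainly to lipid-poor apolipoproteins and ABCG1 to particles that already hold lipid. Lipoprotein receptors, LRP1 among them, take the particles up, and lipoprotein lipase splits the triglycerides they carry. Astrocytes are known as the main source of APOE in the healthy brain.

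After filtering, 1935 of 2455 FGF21 barcodes and 2337 of 2925 vehicle barcodes were used, with medians of 6838 UMIs per FGF21 cell and 4232 per vehicle cell, and 12 barcodes occurred in both libraries. Clusters were named from marker genes with all 7 genes and the other lipid genes below kept out of the clustering. Microglia-like cells numbered 885 in the FGF21 and 1409 in the vehicle library, oligodendrocyte precursor-like cells 576 (FGF21) and 371 (vehicle), and astrocyte-like cells 192 (FGF21) and 99 (vehicle). These 3 classes passed a minimum of 50 cells per library and were set against each other between libraries. Neuron-like cells numbered 22 in the FGF21 and 16 in the vehicle library. Klb had 0 UMIs in the FGF21 library and 3 in the vehicle library, and the reporter transcript was found in 34.9% of FGF21 and 22.3% of vehicle cells, so the sorted label was not checked by Klb itself. The libraries stood apart within classes: of 2 microglia-like clusters one held 859 of the FGF21 and 19 of the vehicle cells, and the other 26 FGF21 and 1390 vehicle cells. Of 2 precursor-like clusters one held 470 FGF21 and 15 vehicle cells and the other 106 FGF21 and 356 vehicle cells. With 1 library per treatment, a treatment effect, a difference between pools of mice and a difference between library preparations cannot be told apart.

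Levels are summed UMIs of a class scaled to 1000000 UMIs of that class (CPM, the unit of every level below), with exact Poisson 95% intervals. All intervals cover counting error only, and no test was possible. Free RNA in the suspension gives every cell some UMIs of genes it does not make. Markers of one class found in classes that should lack them stood at a median 36.3% of their whole-library level in the FGF21 library (18 pairs, 24.8% to 69.8%) and at 29.0% in the vehicle library (21.1% to 49.5%). A background percentage below is the share of a class's level that this amount would give.

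Promoter sequence is shown for 2 genes, the exporter whose microglial level was lower in the FGF21 library and the carrier that most classes held. Both are from RefSeq on GRCm38.p6 and give the 250 bases before the start site, 5′ to 3′ on the gene's minus strand: Abca1 at chr4:53159896-53160145 and Apoe at chr7:19699189-19699438. Capitals mark motif matches.
Abca1: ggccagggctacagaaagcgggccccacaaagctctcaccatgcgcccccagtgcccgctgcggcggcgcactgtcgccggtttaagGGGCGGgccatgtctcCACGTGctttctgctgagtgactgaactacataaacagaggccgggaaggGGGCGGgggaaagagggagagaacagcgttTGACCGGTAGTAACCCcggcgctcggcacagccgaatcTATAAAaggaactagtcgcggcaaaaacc
Apoe: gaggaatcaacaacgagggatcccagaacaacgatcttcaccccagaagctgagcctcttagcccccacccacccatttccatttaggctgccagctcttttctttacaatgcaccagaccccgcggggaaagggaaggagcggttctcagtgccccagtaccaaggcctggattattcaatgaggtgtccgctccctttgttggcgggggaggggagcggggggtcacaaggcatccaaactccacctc
The search covered both strands of windows from 250 bases before to 50 after a start, for 5 motifs chosen after the sequences were seen. The E-box letters CACGTG occur in 7.15% of the 32817 mouse promoter windows, the GC box GGGCGG in 35.6%, TATAAA in 13.6% and the CRE TGACGTCA in 1.79%. The DR4 pair, the letters AGGTCA repeated on the same strand with 4 free bases between, is the kind of element that liver X receptors are known to bind. It occurs in 21.9% when up to 3 of its 12 fixed letters may differ. The Abca1 window held the E-box from base -147, GC boxes from -163 and -97, TATAAA from -29 and, on the other strand from -67, a DR4 match with 3 differing letters. The Apoe window shown held none of the 5. Of the windows at 2 other RefSeq starts of Apoe, one held none and the other TATAAA from -96 and, on the other strand, from -100. Entries were found for 4 of the 7 genes (Abca1, Apoe, Lrp1 and Apod), and a match of letters is no evidence of binding. On GRCm38, Abca1 lies on chromosome 4 (53030787 to 53159895), Abcg1 on chromosome 17 (31057675 to 31117988), Apod on chromosome 16 (31296192 to 31314808), Apoe on chromosome 7 (19696109 to 19699188), Clu on chromosome 14 (65968483 to 65981547), Lpl on chromosome 8 (68880491 to 68907448) and Lrp1 on chromosome 10 (127538161 to 127621148). All 7 are protein-coding in GENCODE.

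Apoe, the main apolipoprotein of brain particles, was highest per UMI in border macrophage-like cells, at 12601 CPM in the FGF21 and 13389 CPM in the vehicle library. These cells, the macrophages of vessels and meninges, numbered 13 in the FGF21 and 38 in the vehicle library. Their level was 13.1-fold (11.98 to 14.4) that of microglia-like cells in the FGF21 library and 19.8-fold (18.6 to 21.1) in the vehicle library. Astrocyte-like cells came next, with 4249 CPM (4133 to 4367) in the FGF21 and 4854 CPM (4642 to 5073) in the vehicle library. All other classes lay lower. Fibroblast-like cells had 2191 CPM (FGF21) and 1992 CPM (vehicle), from 9 FGF21 and 19 vehicle cells, and T or NK cell-like cells had 2326 CPM (FGF21) and 1393 CPM (vehicle), from 16 FGF21 and 17 vehicle cells. In the T or NK cell-like class 1 cell held 25.7% of the Apoe UMIs in the FGF21 and 1 cell 48.1% in the vehicle library, with medians of 3.5 UMIs per FGF21 cell and 2 per vehicle cell. Precursor-like cells had 1403 CPM (FGF21) and 1382 CPM (vehicle), oligodendrocyte-like cells 998 CPM (FGF21) and 1091 CPM (vehicle), and microglia-like cells 960 CPM (FGF21) and 676 CPM (vehicle). Among classes with at least 20 cells in each library, the lowest values were those of mural-like cells (pericytes and smooth muscle), at 670 CPM (FGF21) and 506 CPM (vehicle), and erythroid-like cells, at 675 CPM (FGF21) and 444 CPM (vehicle), whose intervals overlap in both libraries.

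Background took a different part of these levels. It equalled 12.4% of the astrocyte-like level in the FGF21 and 6.70% in the vehicle library, 37.4% (FGF21) and 23.5% (vehicle) of the precursor-like level, and 54.7% (FGF21) and 48.1% (vehicle) of the microglia-like level. With every cell thinned to 2000 UMIs, 82.4% of FGF21 and 70.6% of vehicle microglia-like cells had an Apoe UMI, against 98.0% (FGF21) and 89.8% (vehicle) unthinned. Erythroid-like cells, which should lack the gene and had medians of 2256 UMIs (FGF21) and 1989 UMIs (vehicle), reached 81.8% (48.2% to 97.7%) in the FGF21 and 65.2% (42.7% to 83.6%) in the vehicle library after thinning. These wide intervals include the microglia-like shares. The comparison therefore cannot tell whether the share of microglia-like cells with an Apoe UMI exceeded background. The microglia-like CPM lay above the erythroid-like interval in the vehicle library (320 to 600) and overlapped it in the FGF21 library (448 to 975). At 2000 UMIs the median astrocyte-like cell had 8 Apoe UMIs in the FGF21 and 9 in the vehicle library, the median precursor-like cell 3 (FGF21) and 2 (vehicle), and the median microglia-like cell 2 (FGF21) and 1 (vehicle).

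Because classes differ in number, the class with the highest level was not the one with most transcripts. Precursor-like cells held 35.0% of the Apoe UMIs of the FGF21 library and 28.5% of those of the vehicle library. Microglia-like cells held 26.0% (FGF21) and 33.1% (vehicle), astrocyte-like cells 25.1% (FGF21) and 16.6% (vehicle), and border macrophage-like cells 2.57% (FGF21) and 10.1% (vehicle). Shares of this kind describe the sorted suspension and not the tissue.

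**Figure D1:**
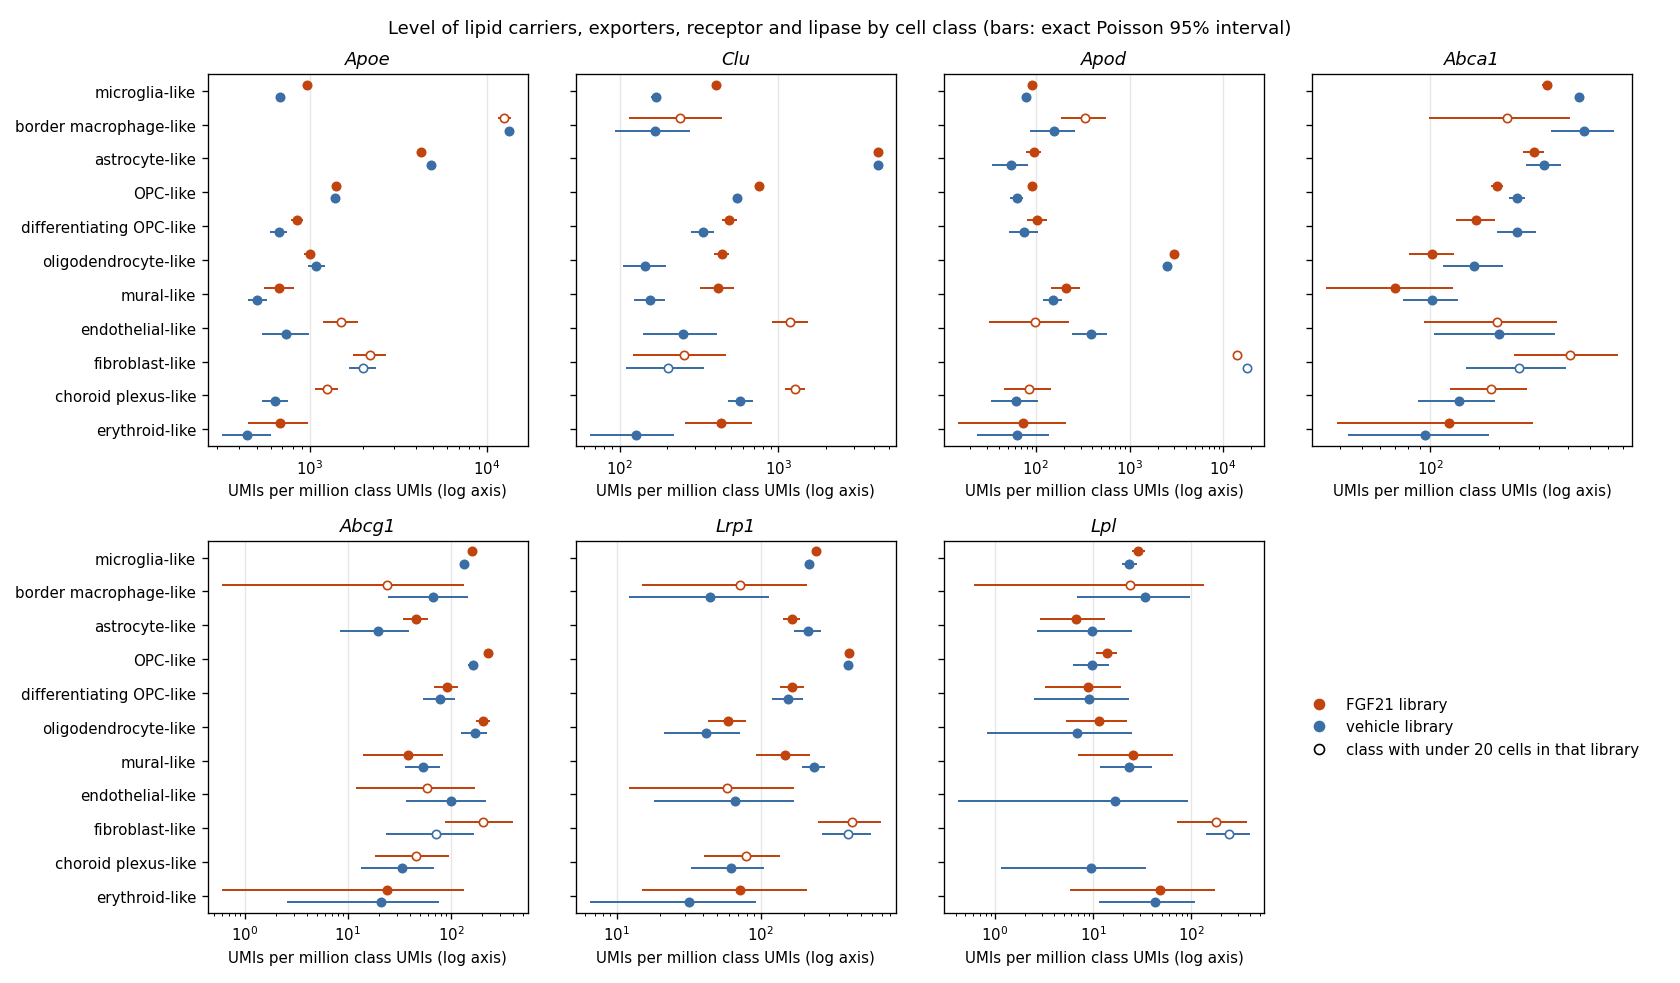
Level of each of the 7 genes (x axis, CPM, log scale with its own range per gene) in 11 cell classes (rows, OPC meaning oligodendrocyte precursor), with the FGF21 library above the vehicle library and exact Poisson 95% intervals. Open points are classes with under 20 cells in that library, and a class with 0 UMIs has no point. Apoe peaks in border macrophage-like cells at 12601 CPM (FGF21) and 13389 CPM (vehicle), Clu in astrocyte-like cells at 4253 CPM (FGF21) and 4249 CPM (vehicle), and Apod in fibroblast-like cells at 13989 CPM (FGF21) and 18085 CPM (vehicle).

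Clu encodes clusterin, also called apolipoprotein J, a secreted carrier and chaperone. It was highest in astrocyte-like cells, at 4253 CPM (4137 to 4371) in the FGF21 and 4249 CPM (4051 to 4454) in the vehicle library. Precursor-like cells had 755 CPM (FGF21) and 546 CPM (vehicle), which the astrocyte-like level exceeded 5.63-fold in the FGF21 and 7.78-fold in the vehicle library. Microglia-like cells had 407 CPM (FGF21) and 169 CPM (vehicle). Choroid plexus-like cells, 16 from FGF21 and 28 from vehicle mice, had 1272 CPM (FGF21) and 577 CPM (vehicle). Astrocyte-like cells held 41.3% of the Clu UMIs of the FGF21 library and 38.2% of those of the vehicle library, precursor-like cells 30.9% (FGF21) and 29.5% (vehicle). In microglia-like, mural-like, oligodendrocyte-like and erythroid-like cells background equalled over 70% of the level in both libraries, and the highest marker pair of each library would give all of it, so Clu made by those cells was not detectable. Across the 14 profiles of 7 classes by 2 libraries, which share depth and background within a library, Apoe and Clu had a Pearson r of 0.92 on log2(CPM + 10).

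Apod encodes a lipocalin that binds arachidonic acid and other small lipids. It was concentrated in 2 classes. Fibroblast-like cells had 13989 CPM in the FGF21 and 18085 CPM in the vehicle library, and oligodendrocyte-like cells had 2967 CPM (2847 to 3091) in the FGF21 and 2544 CPM (2364 to 2735) in the vehicle library. Oligodendrocyte-like cells, 82 in the FGF21 and 41 in the vehicle library, held 56.3% (FGF21) and 26.3% (vehicle) of all Apod UMIs. The few fibroblast-like cells held 13.4% (FGF21) and 44.8% (vehicle). Among the remaining classes with at least 20 cells in each library, mural-like cells were highest at 211 CPM (FGF21) and 151 CPM (vehicle), with background equal to 50.2% (FGF21) and 50.7% (vehicle) of it. Of the smaller classes, border macrophage-like cells had 336 CPM (FGF21) and 157 CPM (vehicle) from 14 UMIs in each library, and endothelial-like cells 97.5 CPM from 5 FGF21 UMIs and 385 CPM from 23 vehicle UMIs. Microglia-like cells (FGF21 90.4 CPM, vehicle 77.9 CPM), precursor-like cells (FGF21 90.01 CPM, vehicle 63.01 CPM) and astrocyte-like cells (FGF21 94.6 CPM, vehicle 54.1 CPM) did not exceed background beyond their intervals.

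**Figure D2:**
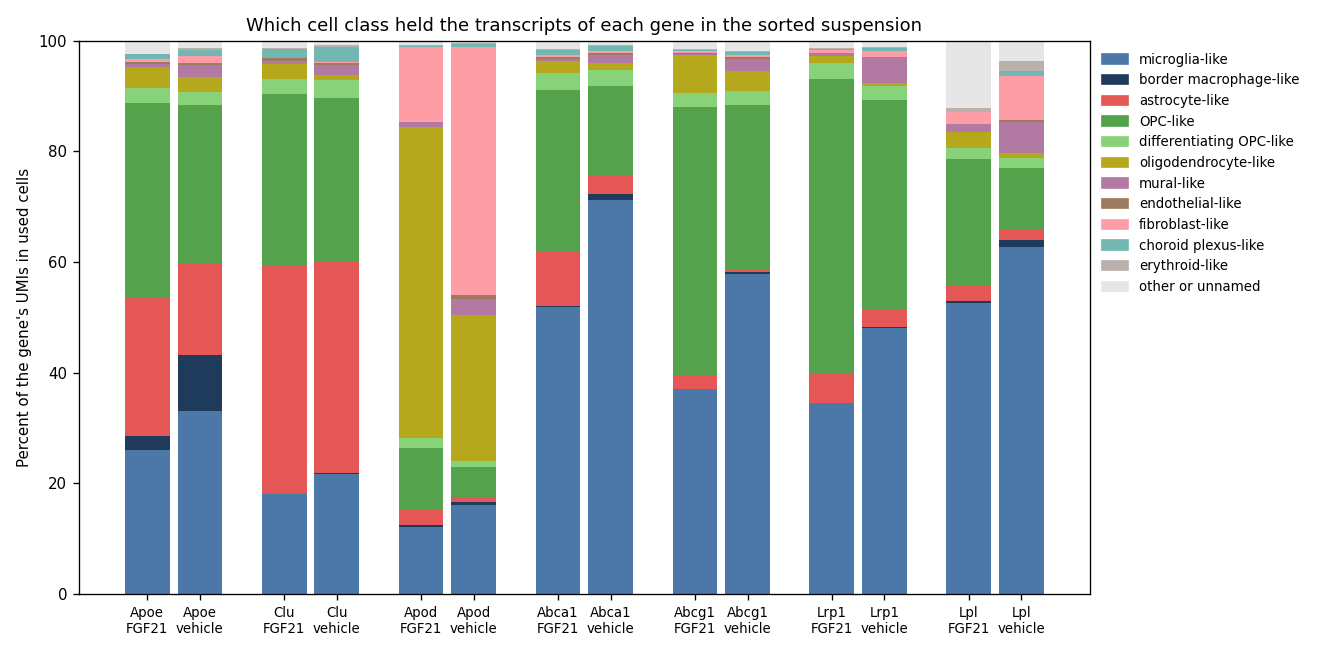
Share of each gene's UMIs in used cells (y axis, percent) by cell class (colours), one bar per gene and library with FGF21 left of vehicle. Most Apod UMIs lay in oligodendrocyte-like and fibroblast-like cells, while microglia-like cells held 51.9% of the Abca1 UMIs of the FGF21 library and 71.2% of those of the vehicle library.

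The exporters had unlike distributions. Abca1 was highest in microglia-like cells among classes with at least 20 cells in each library, at 323 CPM (309 to 339) in the FGF21 and 449 CPM (432 to 467) in the vehicle library. Astrocyte-like cells had 284 CPM (254 to 315) in the FGF21 and 315 CPM (262 to 374) in the vehicle library, so that microglia-like cells had 1.14-fold (1.01 to 1.28) their level in the FGF21 and 1.43-fold (1.19 to 1.72) in the vehicle library. Precursor-like cells had 196 CPM (FGF21) and 241 CPM (vehicle), oligodendrocyte-like cells 102 CPM (FGF21) and 155 CPM (vehicle), and mural-like cells 70.2 CPM (FGF21) and 101 CPM (vehicle), the last at background in both. Border macrophage-like cells had 216 CPM (FGF21) and 470 CPM (vehicle) (9 FGF21 and 42 vehicle UMIs), with intervals that include the microglia-like level. With cells thinned to 2000 UMIs, 46.2% of FGF21 and 52.3% of vehicle microglia-like cells had an Abca1 UMI, against 27.3% (6.02% to 61.0%) of FGF21 and 26.1% (10.2% to 48.4%) of vehicle erythroid-like cells. Unthinned, the microglia-like shares were 74.4% (FGF21) and 73.0% (vehicle).

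Among the same classes Abcg1, by contrast, was highest at both ends of the oligodendrocyte lineage. Precursor-like cells had 227 CPM (214 to 240) in the FGF21 and 162 CPM (147 to 179) in the vehicle library, and oligodendrocyte-like cells 206 CPM (175 to 240) in the FGF21 and 169 CPM (125 to 224) in the vehicle library, with overlapping intervals. Differentiating precursor-like cells, which express Gpr17 and Enpp6, lay between these stages by markers but had 90.4 CPM (FGF21) and 77.8 CPM (vehicle), so that mature cells had 2.28-fold (1.68 to 3.11) their level in the FGF21 and 2.17-fold (1.38 to 3.47) in the vehicle library. Background over both libraries equalled 60.4% of the differentiating precursor-like level. Microglia-like cells had 160 CPM (FGF21) and 134 CPM (vehicle). Astrocyte-like cells had 45.6 CPM from 55 FGF21 UMIs and 19.7 CPM from 8 vehicle UMIs, below the amount that background alone would give (134% of their level in the FGF21 and 187% in the vehicle library).

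The balance within the exporter pair differed between some classes but not between all of them. Abca1 made up 86.1% of the summed Abca1 and Abcg1 UMIs of astrocyte-like cells in the FGF21 library (82.4% to 89.4%, exact Clopper-Pearson interval) and 94.1% in the vehicle library (88.7% to 97.4%). It made up 67.0% (FGF21) and 77.1% (vehicle) in microglia-like cells, 46.3% (FGF21) and 59.7% (vehicle) in precursor-like cells, and 33.1% (FGF21) and 47.9% (vehicle) in oligodendrocyte-like cells. The order of these 4 classes was the same in both libraries. The share was lower in the FGF21 library in each, with intervals that overlap in astrocyte-like and oligodendrocyte-like cells. Over all used cells it was also lower there, at 59.2% in the FGF21 and 73.2% in the vehicle library. Background was not taken off these shares. Over both libraries background equalled 79.1% of Abca1 in oligodendrocyte-like cells and 141% of Abcg1 in astrocyte-like cells. Its part in the class order and in the lower FGF21 share was not tested. Differentiating precursor-like cells had 63.7% (55.9% to 71.0%) in the FGF21 and 75.5% (67.5% to 82.4%) in the vehicle library. Both intervals include the microglia-like share. Mural-like cells had 64.7% of 17 FGF21 UMIs and 65.4% of 81 vehicle UMIs. Erythroid-like cells had only 6 FGF21 and 11 vehicle UMIs of the pair. These shares compare transcripts of genes that differ in length and capture, so a value of 50% does not mark equal expression.

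**Figure D3:**
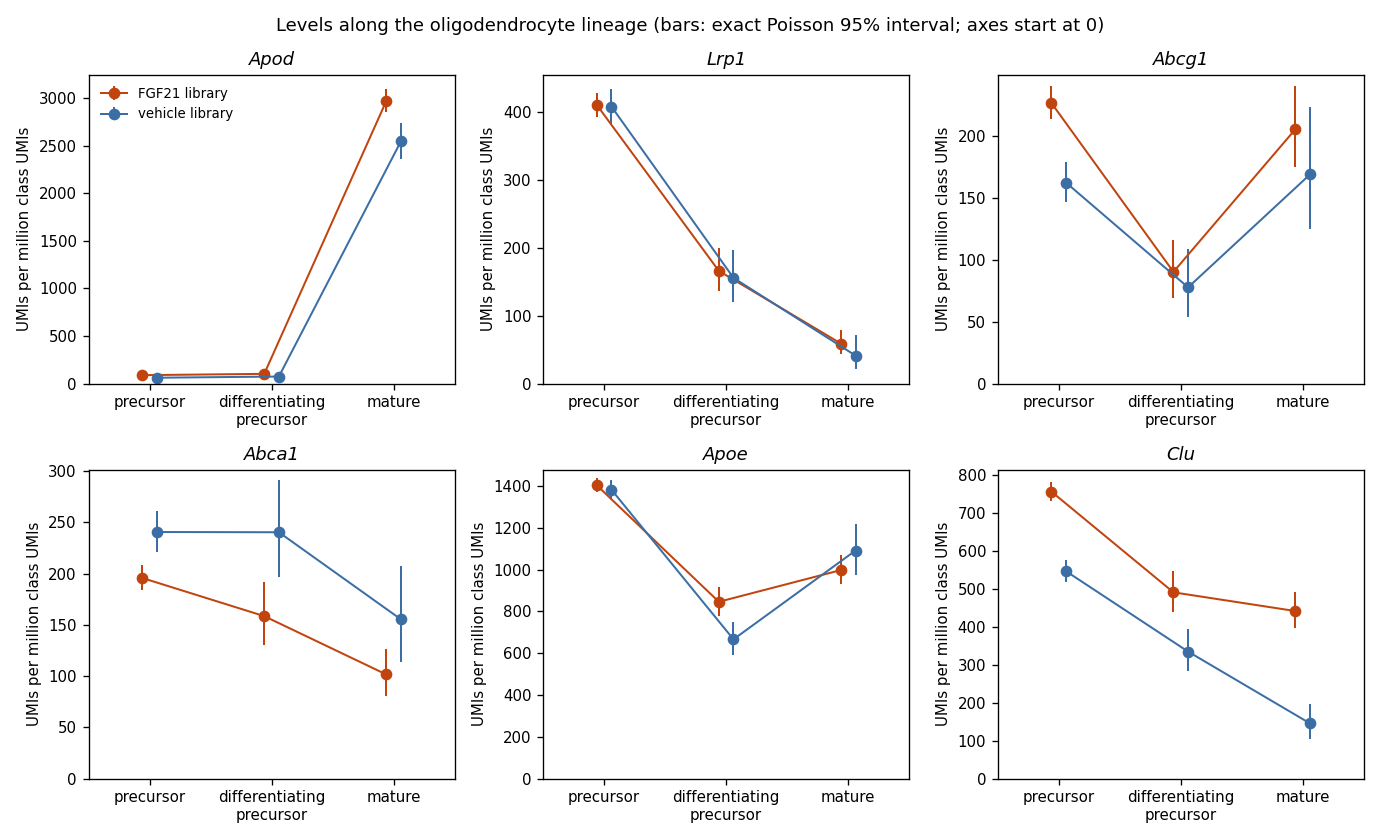
Levels (y axis, CPM, starting at 0) of 6 genes in precursor-like, differentiating precursor-like and mature oligodendrocyte-like cells (x axis), with exact Poisson 95% intervals for the FGF21 and the vehicle library. Apod was near background until the mature class, Lrp1 was lower at each step, and Abcg1 and Apoe were lowest in the differentiating class. In that class background over both libraries equalled 60.4% of the Abcg1, 57.6% of the Apoe and 55.3% of the Lrp1 level.

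Lrp1, the endocytic receptor for APOE particles, was highest in precursor-like cells and fibroblast-like cells. Precursor-like cells had 410 CPM (392 to 428) in the FGF21 and 408 CPM (383 to 434) in the vehicle library. Differentiating precursor-like cells had 166 CPM (FGF21) and 156 CPM (vehicle), with background equal to 55.3% of the level over both libraries. Oligodendrocyte-like cells had 59.1 CPM (FGF21) and 41.4 CPM (vehicle), under background. Microglia-like cells had 244 CPM (FGF21) and 218 CPM (vehicle), astrocyte-like cells 164 CPM (FGF21) and 214 CPM (vehicle), and mural-like cells 147 CPM (FGF21) and 234 CPM (vehicle). Precursor-like cells held 53.4% of the Lrp1 UMIs of the FGF21 and 37.8% of those of the vehicle library.

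Lpl was sparse, with 304 UMIs in used FGF21 cells and 217 in used vehicle cells. Microglia-like cells had 29.0 CPM (24.7 to 33.8) in the FGF21 and 23.4 CPM (19.7 to 27.7) in the vehicle library and held 52.6% (FGF21) and 62.7% (vehicle) of its UMIs. Precursor-like cells had 13.8 CPM (FGF21) and 9.82 CPM (vehicle), and astrocyte-like cells 6.64 CPM (FGF21) and 9.83 CPM (vehicle) (8 FGF21 and 4 vehicle UMIs). Fibroblast-like cells had 178 CPM (71.7 to 368) from 7 FGF21 UMIs and 245 CPM (143 to 393) from 17 vehicle UMIs. Erythroid-like cells had 48.2 CPM (FGF21) and 42.3 CPM (vehicle) (2 FGF21 and 4 vehicle UMIs), with intervals that include the microglia-like level. T or NK cell-like cells had 32 Lpl UMIs in the FGF21 library, 24 of them in 1 cell, and 8 in the vehicle library, all in 1 cell. Outside the microglia-like class the levels thus rest on few molecules. Within it a few cells carried much of the signal: 19 of 885 FGF21 cells and 13 of 1409 vehicle cells had at least 3 Lpl UMIs, and they held 51.2% (FGF21) and 41.9% (vehicle) of the class's Lpl. In the FGF21 library these 19 cells had 1443 CPM Apoe (1253 to 1653), against 947 CPM (921 to 974) in the other microglia-like cells. In the vehicle library the 13 cells had 737 CPM (534 to 993), against 675 CPM (654 to 697). Median depths were 7028 UMIs in the 19 FGF21 cells and 5991.5 in the rest of that library's class, and 4272 UMIs in the 13 vehicle cells and 4174.5 in the rest. The cells were picked by Lpl after the data were seen. Their Apoe interval lay above that of the rest in the FGF21 library and overlapped it in the vehicle library. These intervals leave out the spread between cells. Thinned to 2000 UMIs, FGF21 microglia-like cells had a median of 2 Apoe UMIs and a maximum of 28. Whether single cells carried the difference was not tested.

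Between the libraries, a ratio was called where it was at least 1.5-fold and its exact conditional binomial interval left out 1. Of 21 ratios (7 genes in 3 classes), 3 were called higher in the FGF21 library and 0 lower. Among all genes with at least 50 UMIs, 11.3% were called higher and 4.6% lower in microglia-like cells, 4.79% higher and 4.21% lower in precursor-like cells, and 6.67% higher and 5.25% lower in astrocyte-like cells. All 3 called ratios had background equal to over 50% of the level. Over the 12 ratios with less background, values ran between 0.72 and 1.40, and 0 were called. With background subtracted from both libraries, 1 ratio was called higher, Clu in microglia-like cells at 2.18 (1.41 to 3.40), and 1 lower, Lrp1 in astrocyte-like cells at 0.50 (0.24 to 0.99). The called Apod and Abcg1 ratios of astrocyte-like cells then had no value, because a subtracted level was not above 0.

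In microglia-like cells Abca1 lay below 1 and the other 6 genes above it. Abca1 was lower in the FGF21 library at a ratio of 0.72 (0.68 to 0.77), short of the 1.5-fold limit, with background at 24.4%. Abcg1 stood at 1.19 (1.08 to 1.32), Lrp1 at 1.12 (1.04 to 1.21) and Lpl at 1.24 (0.98 to 1.57). The summed level of the 9 microglia markers in this class was 32509 CPM in the FGF21 and 39766 CPM in the vehicle library, a ratio of 0.82, and its part in the Abca1 value was not tested. Clu had the highest of the 21 ratios, 2.41 (2.24 to 2.61), and Apoe stood at 1.42 (1.36 to 1.48). Background equalled 77.1% of this Clu level and 51.9% of this Apoe level. The 9 astrocyte markers, none of them at 0, summed to 1314 CPM in FGF21 microglia-like cells and 842 CPM in vehicle ones, a ratio of 1.56, and their part in the Clu and Apoe ratios was not tested. Clu was also higher in FGF21 erythroid-like cells (434 CPM, against 127 CPM in vehicle ones).

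In astrocyte-like cells, where both carriers were far above background, Clu was level at 1.00 (0.95 to 1.06) and Apoe slightly lower in the FGF21 library at 0.88 (0.83 to 0.92). Abca1 stood at 0.90 (0.73 to 1.11) and Lrp1 at 0.77 (0.59 to 1.00). Apod at 1.75 (1.10 to 2.90) and Abcg1 at 2.32 (1.10 to 5.64) were the called ratios, both from levels that background alone could give. Apod was concentrated in oligodendrocyte-like and fibroblast-like cells. In astrocyte-like cells the 9 oligodendrocyte markers summed to 1770 CPM (FGF21) and 887 CPM (vehicle). The 7 fibroblast markers summed there to 147 CPM (FGF21) and 150 CPM (vehicle). The part of either in the Apod ratio was not tested.

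In precursor-like cells Apoe at 1.02 (0.97 to 1.06) and Lrp1 at 1.01 (0.93 to 1.09) were level between libraries. Abcg1 stood at 1.40 (1.24 to 1.57), Clu at 1.38 (1.30 to 1.47) and Abca1 at 0.81 (0.73 to 0.90). In the precursor-like cluster shared by the libraries, 106 FGF21 and 356 vehicle cells, Abcg1 came to 1.19 (0.95 to 1.47) and Clu to 1.29 (1.15 to 1.45), a comparison added after the data were seen. Outside the compared classes, oligodendrocyte-like Apod had a ratio of 1.17 (1.07 to 1.27). Clu was called higher in oligodendrocyte-like cells at 3.04 and in mural-like cells at 2.67, with background at 74.0% and 78.7%. Abca1 was called lower in oligodendrocyte-like cells at 0.65 (0.45 to 0.96), with background at 79.1%. It was also called lower in differentiating precursor-like cells at 0.66 (0.499 to 0.872), with background at 48.9%. Lrp1 was called lower in mural-like cells at 0.63 (0.38 to 0.99), with background at 36.9%.

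**Figure D4:**
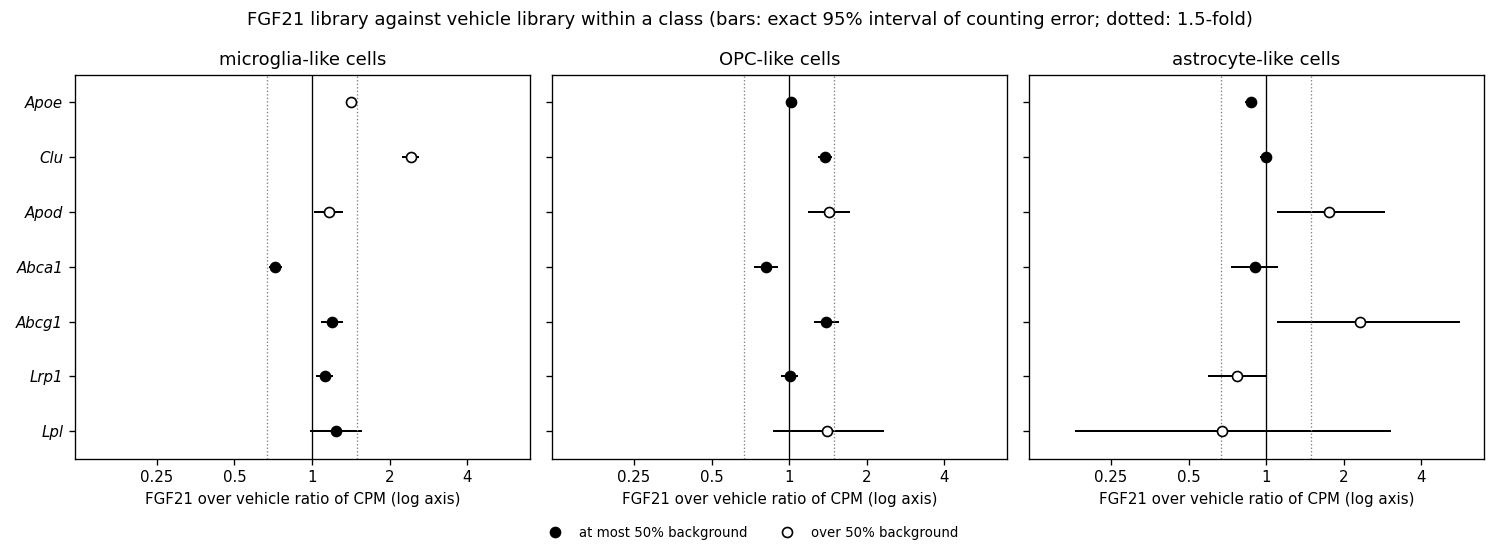
FGF21 over vehicle ratio of CPM (x axis, log scale) of the 7 genes (rows) in microglia-like, oligodendrocyte precursor-like (OPC-like) and astrocyte-like cells, with exact 95% intervals of counting error. The solid line marks 1, dotted lines mark 1.5-fold in either direction, and open points have background equal to over 50% of the level. The 3 points beyond 1.5-fold with an interval without 1 are all open (Clu in microglia-like cells, Apod and Abcg1 in astrocyte-like cells).

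Whole-library ratios were also computed at a common class make-up. Clu stood at 882 CPM over all used FGF21 cells and 428 CPM over all used vehicle cells, a ratio of 2.06. With the class levels of the FGF21 library weighted by the class make-up of the vehicle library, the ratio was 1.54. The same weighting gave 1.15 for Apoe (1.29 without it) and 0.75 for Abca1 (0.71 without it). It gave 1.24 for Abcg1 (1.33 without it), 1.04 for Lrp1 (1.11) and 1.02 for Apod (1.10). Lpl moved away from 1, to 1.25 (1.05 without it). The weighted levels still hold the background of each library. The astrocyte-like class made up 9.92% of used FGF21 cells and 4.24% of used vehicle cells.

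The other genes of lipid handling were read from lists of 106 genes in 7 roles. In microglia-like cells 67 had at least 50 UMIs, 16 were called higher and 2 lower in the FGF21 library, where 11.3% of all genes were called higher and 4.6% lower. In precursor-like cells 6 of 69 were called higher and 4 lower (all genes 4.79% and 4.21%), and in astrocyte-like cells 5 of 53 were called higher and 3 lower (all genes 6.67% and 5.25%). The median log2 ratio of the lists was -0.00, -0.01 and -0.02 in these 3 classes, against 0.03, -0.01 and -0.00 over all genes. After background subtraction 3 were called higher and 1 lower in microglia-like cells, 2 higher and 1 lower in precursor-like cells, and 2 higher and 0 lower in astrocyte-like cells. Genes with a subtracted level not above 0 in either library could not be called. Of the 16 called higher in microglia-like cells, 14 had background equal to over 50% of the level. The other 2 were Scarb1 (1.63), a receptor for high-density lipoprotein, and Tspo (1.72), a mitochondrial outer-membrane protein that binds cholesterol, which was picked after its value was seen.

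Among exporters, Abca9 was called lower in all 3 classes. In microglia-like cells, where background was 17.7%, it had 311 CPM in the FGF21 and 504 CPM in the vehicle library, a ratio of 0.62 (0.58 to 0.66), and in the other classes its level was under background. Abca2, an endolysosomal transporter of myelinating cells, was called higher in astrocyte-like cells at 1.62 (1.12 to 2.40) and in microglia-like cells at 1.72, there with 60.8% background. Abca8b was called higher in precursor-like cells at 1.54 (1.14 to 2.11).

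Among genes of cholesterol trafficking and turnover, Cyp46a1, the cholesterol 24-hydroxylase that starts the removal of brain cholesterol, was called higher in all 3 classes. Its ratio was 1.55 (1.06 to 2.32) in astrocyte-like cells, 1.51 (1.18 to 1.94) in precursor-like cells and 3.45 in microglia-like cells, the last with 54.4% background. Npc1, which moves cholesterol out of lysosomes, was called higher in astrocyte-like cells at 1.61 (1.29 to 2.04), while its partner Npc2 stood at 0.75 (0.60 to 0.94) and was not called. Stard4, a carrier of cholesterol between membranes, had 26.9 CPM in FGF21 and 11.9 CPM in vehicle precursor-like cells, a ratio of 2.27 (1.51 to 3.51).

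Among receptors, Scarb1 was called higher in precursor-like cells at 1.64 (1.27 to 2.14). Trem2, a microglial receptor for lipids and APOE, was level in microglia-like cells at 1280 CPM in the FGF21 and 1305 CPM in the vehicle library. Scarb2, a lysosomal membrane protein, stood there at 0.85. Stab1, a scavenger receptor, was called lower in astrocyte-like cells at 0.55 and Mylip, a ubiquitin ligase of lipoprotein receptors, at 0.46, both with a level under background. In precursor-like cells Mylip was called lower at 0.53, also under background.

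Of the remaining roles, Pltp, a phospholipid transfer protein, was called lower in microglia-like cells at 0.53 and in precursor-like cells at 0.56, with background over 50% in both. Sel1l, a protein that lipoprotein lipase needs to mature, and Lipa, the lysosomal acid lipase, stood at 0.76 and 0.85 in microglia-like cells and were not called. The co-repressor Ncor1 ran between 0.90 and 0.93 in the 3 classes. Of 9 listed fatty acid carriers and related genes with at least 50 UMIs in microglia-like cells 6 were called higher, against 11.3% of all genes. All 6 had background over 50% of the level. It was 76.3% for Dbi (1.73), 64.5% for Ptgds (1.54) and 54.8% for Slc27a1 (1.82). Fabp3, Fabp5 and Fabp7, picked after their values were seen, had 72.2%, 122% and 248%. Ptgds was also called in astrocyte-like cells at 1.52 with 60.7% background. No other listed apolipoprotein had at least 50 UMIs in any compared class: Apob had 12 UMIs in FGF21 and 8 in vehicle microglia-like cells, and Apol9a had 6 in each.

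Genes whose class profile was most like that of a member were ranked by Pearson r over the same 14 profiles among 11120 genes, as a description of profiles that share libraries and background. Clu was followed by Aldoc (0.99), Mt3 and Slc7a10 (both 0.99), and Apoe by Gldc (0.97), Slc1a2 and Prdx6 (both 0.96). Aldoc and Slc1a2 are among the astrocyte markers used to name clusters. Apod was followed by Lpar1 (0.98), Ndrg1 and Car14 (both 0.97), Abca1 by Adgrg1 and Tpp1 (both 0.93) and Man2b2 (0.91), and Abcg1 by Slc25a13 (0.93) and Brf2 (0.90). Lrp1 was followed by Tnpo1 (0.94), Klhl9 (0.92) and Mysm1 (0.91), and sparse Lpl by Gpx1 (0.92), Ftl1-ps1 and Ftl1 (both 0.89). Ftl1-ps1 is a near-identical copy of Ftl1, and their reads may be split uncertainly.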

How the data were processed

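Per the file headers, the authors made the deposited UMI counts with the BD WTA Rhapsody Analysis Pipeline 1.9.1, and the build was GRCm38, per the submitters' processing notes. Basolateral amygdala of 3 mice per treatment was pooled, digested with pronase under actinomycin D and sorted, per the labels' protocols. Cells with at least 500 UMIs, 300 genes and at most 25% mitochondrial UMIs were kept, and Scrublet in scanpy 1.11.5 removed 16 FGF21 and 17 vehicle doublets. Leiden clustering at resolution 1 (2000 variable genes without the members and listed lipid genes, 30 components, 15 neighbours) gave 16 clusters, named from marker lists of 19 types. Genes that one table did not list were taken as 0 there.

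Members and lists were chosen with earlier results of these data known, and the 50% background limit after the values were seen. Named list genes were the 4 called genes with the most UMIs per class and direction and the 2 with the most UMIs per role. Some genes that this rule or the likeness ranking picked are not reported here. The ratio intervals were tested on simulated counts with counting error alone. That test cannot tell how they behave under differences between cells, mice or libraries. Each treatment had 1 library, so no p-value was computed. Intervals are at 95%. Other filters, totals, scalings, clusterings and a background subtraction were tried as alternatives. The aligner was not given in the sources used here.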

Additional observations from a re-analysis of the deposited data

How the results depend on the processing

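Ratios were recomputed with other filters, totals, scalings and clusterings, with doublets kept, without the top 1% of cells and with background subtracted. Of 268 recomputed member ratios, 259 stayed within the counting interval of the main ratio and 9 moved beyond it. Ratios without a value after subtraction are not in this count. They were Apod in all 3 classes and Abcg1 and Lpl in astrocyte-like cells. Microglia-like Abca1 ran between 0.70 and 0.75, microglia-like Clu between 2.18 and 2.50, and astrocyte-like Apoe between 0.85 and 0.92. Subtracting background left 1 member ratio called higher (3 without) and 1 lower (0 without), astrocyte-like Lrp1 at 0.50. The called astrocyte-like Apod and Abcg1 ratios had no value there, because a subtracted level was not above 0. Subtraction left 3 list genes called higher and 1 lower in microglia-like cells, and 2 higher and 1 lower in precursor-like cells. In astrocyte-like cells it left 2 higher and 0 lower. In the shared precursor-like cluster, with fewer cells, 3 list genes were called higher. Abcg1 of vehicle oligodendrocyte-like over precursor-like cells stood at -0.041 (log2) as a mean of cell CPM, so their order is not settled. No paired analysis was possible because each treatment had 1 library, which also leaves none to leave out. Low counts limit Lpl, with 304 UMIs in used FGF21 cells and 217 in used vehicle cells. Abcg1 in astrocyte-like cells rested on 55 FGF21 and 8 vehicle UMIs, a level under background.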

Other observations

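Apoe-rich cells were rare in the microglia-like class. With each cell thinned to 2000 UMIs, 4 of 864 FGF21 cells and 3 of 1342 vehicle cells had at least 10 Apoe UMIs, against 61 of 164 and 36 of 77 astrocyte-like cells. The summed level of 8 border macrophage markers in these cells was 0 CPM in the 4 FGF21 cells and 142 CPM in the 3 vehicle cells, against 12009 and 16102 CPM in border macrophage-like cells with as much Apoe. In precursor-like and oligodendrocyte-like cells 0 cells reached 10 UMIs in either library.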
